A study of Mus musculus with 8 samples.

Results

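The genes described are 10 members of the NRF2 antioxidant program and of the defence against ferroptosis, an iron-dependent form of cell death: Nfe2l2, Keap1, Gclc, Gclm, Gsr, Txnrd1, Srxn1, Hmox1, Gpx3 and Gpx4. They were chosen by name and matched to the Ensembl identifiers of the count table, where all 10 were found among 42256 identifiers, and all 10 were among the 15852 genes tested. RNA came from kidneys of 8 adult male mice of mixed 129S1/Sv x C57BL/6 background, 4 labelled CDH11-/- and 4 labelled CDH11+/+. All 8 mice received aristolochic acid, a nephrotoxic plant compound that injures mainly the proximal tubule, at a daily dose of 3 mg/kg for 5 days, and kidneys were taken 2 weeks after dosing ended. The groups therefore share the injury, no uninjured kidney was measured, and the series title names a different injury (Unx/AngII) from the labels, which were followed. The sources used here do not describe the CDH11-/- allele or say whether the mice were littermates.

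NRF2, the protein of Nfe2l2, is a transcription factor that KEAP1 normally holds in the cytoplasm and delivers to a CUL3 ubiquitin ligase for breakdown. Oxidants and electrophiles modify cysteines of KEAP1, NRF2 then accumulates, and with small MAF partners it activates genes that carry an antioxidant response element. Its targets make and recycle glutathione, reduce thioredoxin and peroxiredoxins, and break down heme. GPX4 reduces lipid hydroperoxides in membranes with glutathione and so restrains ferroptosis, a route of tubule cell death in kidney injury, while GPX3 is the glutathione peroxidase that the proximal tubule secretes into plasma.

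Libraries held 10675309 to 18539479 counts. Cdh11, the targeted gene, was higher in the libraries labelled CDH11-/-: 89.9, 91.3, 113 and 117 CPM, against 75.6, 58.0, 61.7 and 59.0 CPM in those labelled CDH11+/+ (CPM are counts per 1000000 of a library total scaled between libraries by TMM). The groups did not overlap, and edgeR called it higher (log2 fold change 0.69 ± 0.11, SE, adjusted p = 0.0249). Whether the labels or the allele account for this was not tested, and every direction below depends on the labels. Genotypes are therefore given as labelled, and each direction below sets libraries labelled CDH11-/- against libraries labelled CDH11+/+. A pair of libraries stood apart. In CDH11+/+ replicate 1 the summed level of 10 proximal tubule markers was 2208 CPM, inside the 1559 to 2408 CPM of the CDH11-/- libraries, where the other CDH11+/+ libraries held 3345 to 4902 CPM. In CDH11-/- replicate 2 albumin, Alb, a product of hepatocytes, stood at 295 CPM, against 0.604 to 20.4 CPM in the other 7 libraries. Of the other marker lists, the sum for macrophages (9 of 9 markers tested) was 4009 to 5128 CPM in CDH11-/- and 3468 to 4982 CPM in CDH11+/+ libraries. That for injured tubules (5 of 5) was 11592 to 12236 CPM in CDH11-/- and 12889 to 13929 CPM in CDH11+/+ libraries, with no overlap, although 3 of the 5 had negative and 2 positive log2 fold changes (0 called in edgeR, 1 at an unadjusted p under 0.05, with 2 called lower in DESeq2 and 1 in limma-voom). Endothelial markers summed to 199 to 214 CPM in CDH11-/- and 145 to 200 CPM in CDH11+/+ libraries, and fibroblast markers to 1204 to 1713 CPM in CDH11-/- and 1028 to 1493 CPM in CDH11+/+ libraries. Of these, 0 were called in edgeR (3 of 4 endothelial and 3 of 5 fibroblast markers at an unadjusted p under 0.05), while DESeq2 called 2 and 2 higher and limma-voom 4 and 3. The markers Umod, Slc12a1, Slc34a1 and Lrp2 were above 0 in every library. Among lists for tissue outside the kidney, adipocyte markers summed to 0.129 to 4.32 CPM in CDH11-/- and 0.0771 to 0.554 CPM in CDH11+/+ libraries, and adrenal markers to 2.85 to 3.75 CPM in CDH11-/- and 1.75 to 4.52 CPM in CDH11+/+ libraries, and Adipoq, Plin1, Lep, Cyp11b1, Cyp11a1 and Cyp21a1 were at 0 in at least 1 library.

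Upstream sequence was read for the members with an entry in the RefSeq promoter table of GRCm38.p6, because the program is defined by the antioxidant response element in its target promoters. The core letters TGACNNNGC were searched on both strands from 250 bases before to 50 bases after each annotated start. Of 7 members in that table, 4 held a match in at least 1 window (Nfe2l2, Srxn1, Gclm and Txnrd1) and 3 did not (Keap1, Gpx3 and Gpx4), where 14% of 27025 genes of the table hold it in at least 1 window (12.4% of 32851 windows). A match describes the letters in this window only. Sequences that differ from TGACNNNGC at a fixed base were not counted, so the absence or place of a match does not settle where an element lies. The same letters followed by a further A were found in the Txnrd1 window alone among the members, and in 3.45% of genes (3.04% of windows). The Srxn1 match, TGACCTAGC, lies on the opposite strand at bases 29 to 37 after the start. The other 3 matches lie upstream, and the 250 bases before the start are printed 5′ to 3′ on the strand of the gene, with capitals marking the matched letters (on the Gclm and Txnrd1 lines the capitals are the reverse complement of the motif, since it lies on the opposite strand). The Nfe2l2 window is chr2:75704664-75704913 on the minus strand, the Gclm window is chr3:122245307-122245556 on the plus strand, and the Txnrd1 window, which is the second of 3 annotated starts, is chr10:82858956-82859205 on the plus strand.
Nfe2l2: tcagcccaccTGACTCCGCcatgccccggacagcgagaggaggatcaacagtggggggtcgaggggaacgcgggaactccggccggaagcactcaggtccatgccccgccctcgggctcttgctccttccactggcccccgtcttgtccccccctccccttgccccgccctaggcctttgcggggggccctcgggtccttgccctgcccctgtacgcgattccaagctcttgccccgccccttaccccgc
Gclm: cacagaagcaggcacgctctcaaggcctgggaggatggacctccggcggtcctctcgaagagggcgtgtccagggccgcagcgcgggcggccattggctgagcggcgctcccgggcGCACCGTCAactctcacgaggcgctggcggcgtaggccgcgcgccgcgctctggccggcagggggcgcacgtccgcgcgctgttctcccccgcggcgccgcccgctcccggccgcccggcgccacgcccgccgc
Txnrd1: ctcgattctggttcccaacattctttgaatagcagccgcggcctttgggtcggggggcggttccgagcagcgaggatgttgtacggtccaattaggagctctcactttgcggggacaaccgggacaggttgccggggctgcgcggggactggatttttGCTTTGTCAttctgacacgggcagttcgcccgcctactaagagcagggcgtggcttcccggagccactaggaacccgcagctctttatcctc

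The members differed widely in level. Per kilobase of merged exons, which allows genes to be compared, Gpx3 was the most abundant at 4966 ± 790 CPM per kb in CDH11-/- and 6505 ± 1247 CPM per kb in CDH11+/+ libraries (SD, n = 4 each). It ranked between the second and the fourth gene of every library by CPM and took 0.733% to 1.35% of all counts. Gpx4 followed at 196 ± 22.0 CPM per kb in CDH11-/- and 227 ± 30.7 CPM per kb in CDH11+/+ libraries. Neither Gpx3 and Gpx4, nor Gpx4 and Gclc, overlapped in any library. Gclc came next in the order with 60.1 and 68.1 CPM per kb (CDH11-/- and CDH11+/+ means) and Nfe2l2 with 49.3 and 48.8 CPM per kb, and this pair overlapped across libraries. Gsr, Hmox1, Gclm, Txnrd1 and Srxn1 lay between 17.5 and 39.0 CPM per kb, each overlapping its neighbour in the order, so their order is not separated from the spread. Keap1 was the lowest at 13.1 and 13.5 CPM per kb (CDH11-/- and CDH11+/+ means) and did not overlap Srxn1. With the length of the longest transcript in place of merged exons, Txnrd1 moved to 55.3 CPM per kb in CDH11+/+ libraries, which is the fifth place, and Gpx3, Gpx4, Gclc and Nfe2l2 stayed on the first 4 places.

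**Figure D1:**
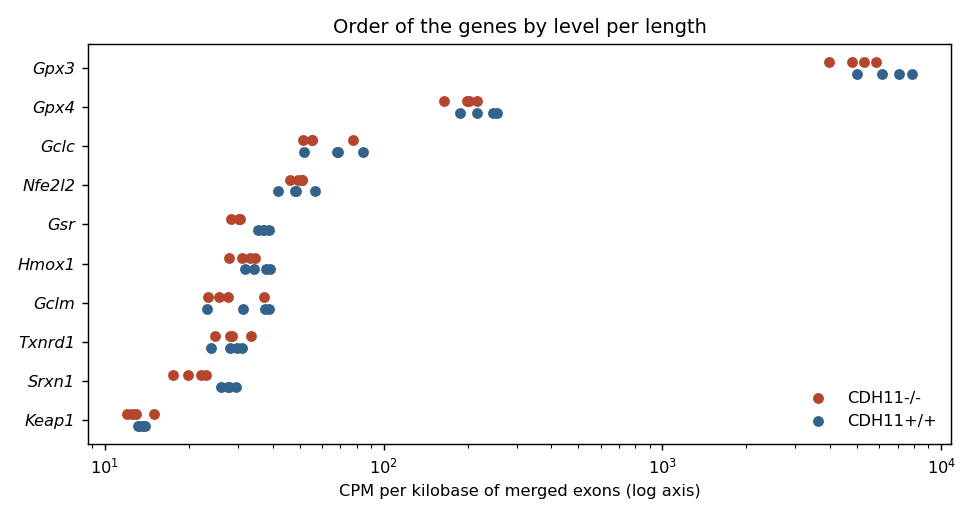
Level of each gene per kilobase of merged exons on a log axis, with 1 point per library, CDH11-/- above CDH11+/+ in each row. Gpx3 reaches 3970 to 7862 CPM per kb, Gpx4 165 to 256, and Keap1 12.0 to 15.0 CPM per kb.

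The comparison of the labelled genotypes asked whether the antioxidant program of the injured kidney differs with cadherin-11, an adhesion protein of mesenchymal cells. Gsr, the glutathione reductase gene, fell by 0.31 on the log2 scale in the libraries labelled CDH11-/-, and it was the member called. Srxn1, the sulfiredoxin gene, had a larger value, −0.43, that lay just beyond the threshold. The regulators Nfe2l2 and Keap1 and the thioredoxin reductase gene Txnrd1 had values within 0.04 of 0 on the log2 scale, and none of the 10 genes rose. In edgeR 1 of 10 members was called lower and 0 higher at an adjusted p under 0.05, where 0.366% of all genes tested were called lower and 0.36% higher (0.725% in either direction). The libraries of the labels did not overlap, with CDH11-/- lower, for 2 of 10 members, where that held for 3.74% of all genes. The reverse, CDH11-/- higher without overlap, held for 0 members and 3.59% of all genes (7.33% in either direction). DESeq2 and limma-voom, run as alternatives, also called 0 members higher. An unadjusted p under 0.05 was reached by 3 of 10 members, where 14.4% of all genes reached it. Of the 10 members 8 had negative log2 fold changes (52.3% of all genes did), and their median was −0.19, where the median of all genes was −0.01. In a tissue measured in bulk, fewer cells of a type and less RNA per cell cannot be told apart.

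**Figure D2:**
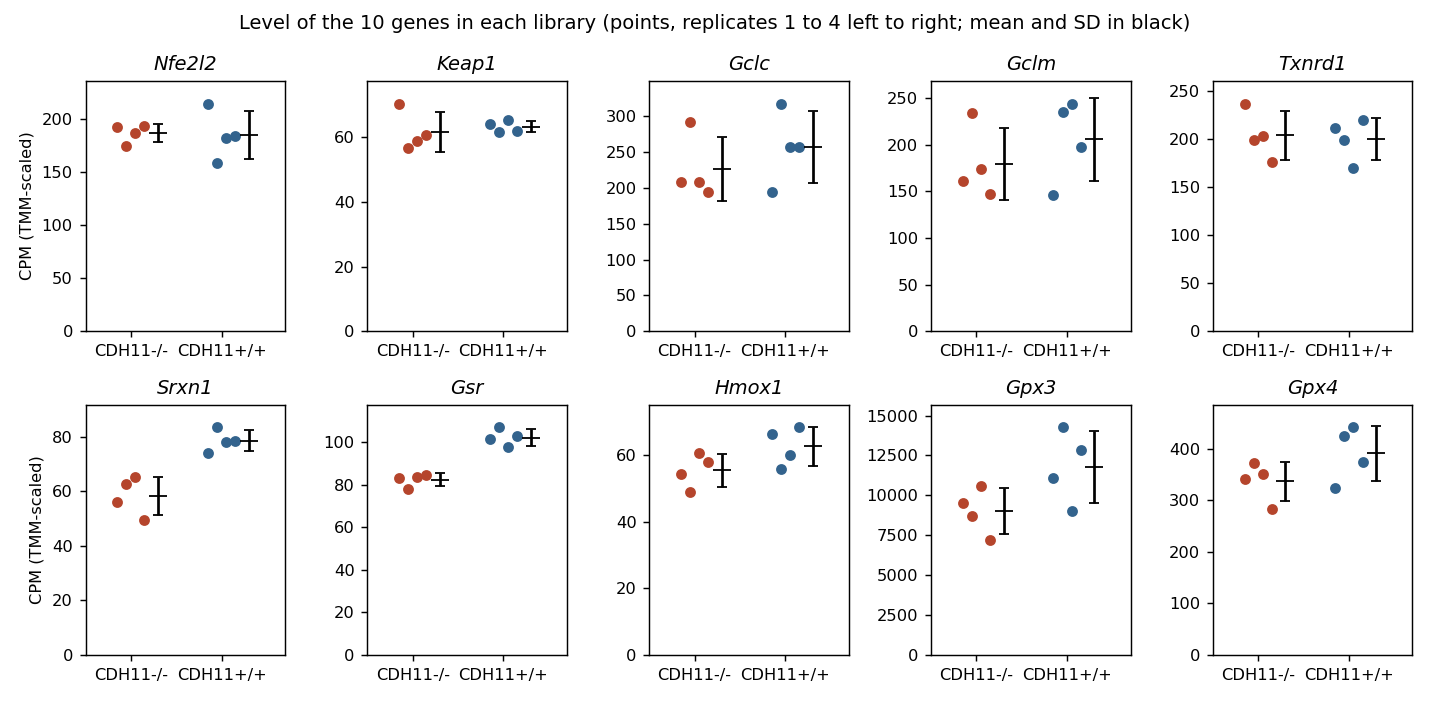
Level of each of the 10 genes in CPM, from 0, with 1 point per library (replicates 1 to 4 from left to right), CDH11-/- left and CDH11+/+ right, and the mean with SD in black. The points of Gsr (77.9 to 84.5 against 97.6 to 107 CPM) and of Srxn1 (49.4 to 65.1 against 73.9 to 83.3 CPM) separate by label, and those of the other 8 genes overlap.

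The regulator pair was close to level between the labels. Nfe2l2 (ENSMUSG00000015839, chromosome 2, 75675513 to 75704641 of GRCm38, minus strand) had 193, 175, 187 and 194 CPM in CDH11-/- replicates 1 to 4, against 215, 159, 182 and 185 CPM in CDH11+/+ replicates 1 to 4. The CDH11+/+ libraries held both the highest and the lowest value, so the groups overlapped fully. In the quasi-likelihood test of edgeR, with Benjamini-Hochberg adjustment over all genes tested, the difference was 0.02 ± 0.09 on the log2 scale (SE, adjusted p = 0.954). Keap1 (ENSMUSG00000003308, chromosome 9, 21229730 to 21239361, minus strand) encodes the sensor that binds NRF2. It had 70.3, 56.5, 58.8 and 60.6 CPM in CDH11-/- libraries, against 64.1, 61.6, 65.3 and 62.0 CPM in CDH11+/+ libraries. The CDH11-/- libraries spanned the whole CDH11+/+ range, and the log2 fold change was −0.04 ± 0.07 (SE, edgeR adjusted p = 0.849). An exon of Keap1 overlaps the antisense gene Gm16754, and no source used here says whether reads were counted by strand. The ratio of Nfe2l2 to Keap1 counts within a library was 2.75 to 3.20 in CDH11-/- and 2.58 to 3.35 in CDH11+/+ libraries. The log2 ratio differed by 0.067, and by 0.0083 without CDH11+/+ replicate 2 to 0.134 without CDH11+/+ replicate 1 when a library was left out (all 8 libraries: two-sided exact permutation p = 0.514, adjusted p = 0.771 over 3 ratios), and 0.0286 is the smallest p that 4 against 4 allows.

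Glutamate-cysteine ligase, which makes the first bond of glutathione, is a pair of a catalytic subunit (Gclc) and a modifier subunit (Gclm). Gclc (ENSMUSG00000032350, chromosome 9, 77754535 to 77794485, plus strand) had 209, 293, 209 and 194 CPM in CDH11-/- libraries, against 195, 317, 258 and 256 CPM in CDH11+/+ libraries. CDH11-/- replicate 2 and CDH11+/+ replicate 1 crossed over, the first among the high libraries and the other among the low ones. Gclm (ENSMUSG00000028124, chromosome 3, 122245557 to 122270732, plus strand) had 161, 235, 174 and 147 CPM in CDH11-/- libraries, against 146, 235, 244 and 198 CPM in CDH11+/+ libraries. The same 2 libraries crossed over for Gclm. The log2 fold changes were −0.18 ± 0.17 for Gclc (SE, edgeR adjusted p = 0.683) and −0.20 ± 0.19 for Gclm (SE, edgeR adjusted p = 0.696). Single libraries moved both values. Without CDH11-/- replicate 2 they were −0.33 (Gclc) and −0.36 (Gclm), and without CDH11+/+ replicate 1 −0.28 and −0.32. Without CDH11+/+ replicate 2 they were −0.06 and −0.13, without CDH11-/- replicate 4 −0.11 for both, and Gclm was −0.11 without CDH11+/+ replicate 3. Processing moved them too. With the authors' scaling factors, which differ for Gclm by −0.09 (log2) between the labels, Gclc was −0.18 and Gclm −0.09. With 1 surrogate variable they were −0.08 and −0.07. Adjusted p in all these fits stayed at 0.296 or above in edgeR. Within a library Gclm counts were 0.758 to 0.831 of Gclc counts in CDH11-/- and 0.741 to 0.947 in CDH11+/+ libraries. The log2 ratio differed by −0.015 between the labels, a sign that turned to 0.0667 without CDH11+/+ replicate 3, 0.0047 without CDH11-/- replicate 4 and 0.0831 with the normalized values (all 8 libraries: two-sided exact permutation p = 0.971, adjusted p = 0.971 over 3 ratios). Exons of Gclm overlap the pseudogene model Gm6061 on its own strand and Gm17494 on the other, so its counts are uncertain where reads fall on shared exons.

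Gsr (ENSMUSG00000031584, chromosome 8, 33652523 to 33698163, plus strand) encodes the reductase that returns oxidized glutathione to its reduced form with NADPH. It had 83.2, 77.9, 83.5 and 84.5 CPM in CDH11-/- libraries, against 101, 107, 97.6 and 103 CPM in CDH11+/+ libraries. Every CDH11-/- library lay below every CDH11+/+ library, and the groups were tight, at 82.3 ± 2.95 and 102.1 ± 3.79 CPM (CDH11-/- and CDH11+/+, SD, n = 4 each). The edgeR estimate was −0.31 ± 0.06 on the log2 scale (SE, adjusted p = 0.0313). Over 20 alternatives the adjusted p lay between 0.000235 and 0.123, and 9 of them kept the call. The call ended when library size alone scaled the libraries (−0.26, edgeR adjusted p = 0.0831) and with each fit on the authors' normalized values or factors (−0.30, limma or edgeR adjusted p = 0.0772 to 0.0817). It also ended in edgeR when a library was left out, for CDH11-/- replicate 1 (adjusted p = 0.0949), 2 (0.076), 3 (0.099) and 4 (0.0687) and for CDH11+/+ replicate 2 (0.0965), 3 (0.0508) and 4 (0.123). Without CDH11+/+ replicate 1 it held (−0.31, edgeR adjusted p = 0.018). Among the 9 fits that kept the call, the share of all genes called was 6.18% without CDH11+/+ replicate 1, 4.57% with the surrogate variable, 4.28% in limma-voom and 3.37% in DESeq2. In the other fits that kept it the share was 0.814% (no robust moderation), 0.788% (a filter of 1 CPM in 4 libraries), 0.776% (DESeq2 size factors), 0.719% (earlier edgeR estimate) and 0.589% (no filter). Among those that ended it, 0.757% (library size alone), 0.341% and 0.379% (limma on the normalized values with pseudocounts of 1 and 10) and 0.41% (the authors' factors) were called. With a library left out the share was 0.263%, 0.482%, 0.3% and 0.374% for CDH11-/- replicates 1, 2, 3 and 4, and 0.193%, 0.536% and 0.168% for CDH11+/+ replicates 2, 3 and 4. At a threshold of 0.10, where 1.97% of all genes were called, both Gsr and Srxn1 were called. Gsr and Hmox1 share chromosome 8 with Cdh11, at distances of 68.9 and 27.5 Mb.

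Thioredoxin reductase and sulfiredoxin serve the other thiol system. Txnrd1 (ENSMUSG00000020250, chromosome 10, 82833951 to 82897712, plus strand) encodes the cytosolic selenoprotein that reduces thioredoxin. It had 237, 200, 203 and 176 CPM in CDH11-/- libraries, against 212, 199, 170 and 220 CPM in CDH11+/+ libraries, so the groups overlapped, and edgeR put the log2 difference at 0.03 ± 0.10 (SE, adjusted p = 0.93). Srxn1 (ENSMUSG00000032802, chromosome 2, 152105516 to 152111376, plus strand) encodes the enzyme that restores overoxidized peroxiredoxins. It had 55.9, 62.6, 65.1 and 49.4 CPM in CDH11-/- libraries, against 73.9, 83.3, 78.0 and 78.5 CPM in CDH11+/+ libraries. Every CDH11-/- library lay below every CDH11+/+ library. The edgeR estimate was −0.43 ± 0.09 on the log2 scale (SE, adjusted p = 0.0512). Over 20 alternatives the adjusted p lay between 0.00265 and 0.171, and 6 of them made a call. Those 6 were DESeq2 (−0.42, adjusted p = 0.00265), limma-voom with quality weights (−0.39, adjusted p = 0.0192), 1 surrogate variable in edgeR (−0.40, adjusted p = 0.00628), no filter on low counts (adjusted p = 0.043), the edgeR estimate of earlier versions (adjusted p = 0.0488) and leaving out CDH11+/+ replicate 1 (−0.44, edgeR adjusted p = 0.0185). In those fits 3.37% (DESeq2), 4.28% (limma-voom), 4.57% (surrogate variable), 0.589% (no filter), 0.719% (earlier estimate) and 6.18% (without that library) of all genes were called. With the authors' factors, which differ for Srxn1 by −0.09 (log2) between the labels, its value shrank to −0.33 (edgeR adjusted p = 0.123), and its normalized values still did not overlap (727 to 898 in CDH11-/- and 996 to 1089 in CDH11+/+ libraries).

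Hmox1 (ENSMUSG00000005413, chromosome 8, 75093621 to 75100589, plus strand) encodes heme oxygenase, the inducible enzyme that opens heme into biliverdin, carbon monoxide and iron. It had 54.2, 49.0, 60.5 and 57.9 CPM in CDH11-/- libraries, against 66.4, 55.8, 60.0 and 68.3 CPM in CDH11+/+ libraries. The groups overlapped at their inner edges, and the log2 fold change was −0.18 ± 0.09 (SE, edgeR adjusted p = 0.379). Macrophages also express Hmox1 at high level. All 9 macrophage markers had positive log2 fold changes, with 0 called in edgeR (0 at an unadjusted p under 0.05), DESeq2 or limma-voom. With the surrogate variable 1 was called higher, and without CDH11+/+ replicate 1 3 were. The part of cell composition in the Hmox1 value was not tested.

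The glutathione peroxidases that are members are both selenoproteins. Gpx3 (ENSMUSG00000018339, chromosome 11, 54902453 to 54910377, plus strand) had 9551, 8685, 10581 and 7198 CPM in CDH11-/- libraries, against 11089, 14254, 9014 and 12818 CPM in CDH11+/+ libraries. CDH11+/+ replicate 3 fell among the CDH11-/- libraries, so the groups overlapped. The log2 fold change was −0.39 ± 0.16 (SE, edgeR adjusted p = 0.297, unadjusted p = 0.0315, and adjusted p of 0.17 to 0.629 over 20 alternatives). Gpx4 (ENSMUSG00000075706, chromosome 10, 80047166 to 80056439, plus strand) had 342, 373, 350 and 284 CPM in CDH11-/- libraries, against 324, 424, 441 and 374 CPM in CDH11+/+ libraries. CDH11+/+ replicate 1 lay inside the CDH11-/- range, and the log2 fold change was −0.21 ± 0.11 (SE, edgeR adjusted p = 0.404). It was −0.13 without CDH11-/- replicate 4 (edgeR adjusted p = 0.697). Gpx3 counts were 23.3 to 30.2 times those of Gpx4 in CDH11-/- and 20.4 to 34.3 times in CDH11+/+ libraries, not corrected for length. The log2 ratio differed by −0.173, and by −0.357 without CDH11+/+ replicate 3 and −0.108 to −0.118 without CDH11+/+ replicate 1, 2 or 4 or CDH11-/- replicate 2 (all 8 libraries: two-sided exact permutation p = 0.486, adjusted p = 0.771 over 3 ratios).

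**Figure D3:**
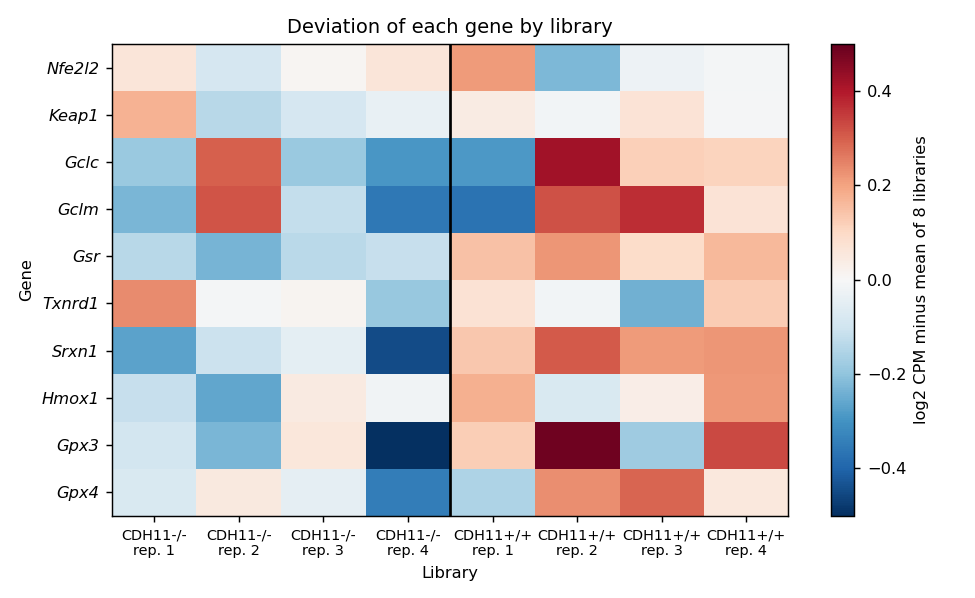
Deviation of log2 CPM of each gene from its mean over 8 libraries, genes in rows and libraries in columns, CDH11-/- left of the black line and CDH11+/+ right of it. Gsr and Srxn1 are below their mean in the 4 CDH11-/- columns and above it in the 4 CDH11+/+ columns, while Gclc and Gclm are high in CDH11-/- replicate 2 and low in CDH11+/+ replicate 1.

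Within a group, some libraries deviated in the same direction for several members. CDH11-/- replicate 4 was the lowest of all 8 libraries for 4 members and lay below the mean of 8 libraries for 9 of 10, with a median deviation of −0.24 (log2). CDH11+/+ replicate 2 was the highest for 4 members and the lowest for 1, and lay below the mean for 4 of 10, with a median deviation of 0.23. These are also the libraries with the lowest and the highest sum of proximal tubule markers, 1559 and 4902 CPM. The order did not hold throughout. CDH11-/- replicate 2 had the highest sum of its group, 2408 CPM. It was the highest of its group for Gclc (293 CPM), Gclm (235 CPM) and Gpx4 (373 CPM). It was also the lowest of all 8 libraries for 3 members (Keap1, Gsr and Hmox1) and lay below the mean for 7 of 10. All 10 proximal tubule markers had negative log2 fold changes at an unadjusted p under 0.05; after adjustment 0 were called in edgeR, 7 in DESeq2 and 3 in limma-voom. No marker of the 10 was at 0 in any library, and their sum was 1559 to 2408 CPM in CDH11-/- and 2208 to 4902 CPM in CDH11+/+ libraries. In CDH11+/+ replicate 1, whose sum of 2208 CPM lies in the CDH11-/- range, Gclc (195 CPM) and Gpx4 (324 CPM) lay in the CDH11-/- range too, and Gclm (146 CPM) lay below it. Keap1 (64.1 CPM) and Txnrd1 (212 CPM) also lay in that range. In the same library Gsr (101 CPM), Srxn1 (73.9 CPM), Gpx3 (11089 CPM), Hmox1 (66.4 CPM) and Nfe2l2 (215 CPM) stood above every CDH11-/- library. Beyond these values the part of proximal tubule content in the member levels was not tested.

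**Figure D4:**
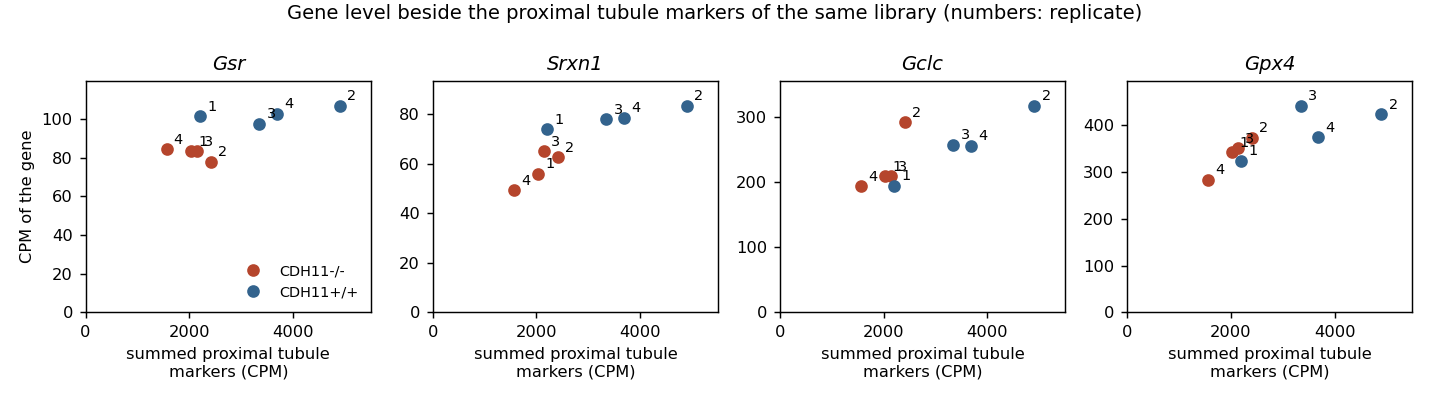
Level of Gsr, Srxn1, Gclc and Gpx4 in CPM (vertical axes, from 0) beside the summed level of 10 proximal tubule markers in the same library (horizontal axes, CPM), with points numbered by replicate. CDH11+/+ replicate 1, at 2208 CPM of markers, sits with the CDH11+/+ libraries for Gsr (101 CPM) and Srxn1 (73.9 CPM) and with the CDH11-/- libraries for Gclc (195 CPM) and Gpx4 (324 CPM).

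The wider pathway was read from 8 lists of 98 other genes, of which 97 were tested (Gpx2 was too low). In edgeR 1 of the 97 fell, 0 rose and 96 were not called, where 0.725% of all genes were called. The libraries of the labels did not overlap, with CDH11-/- lower, for 8 of the 97 (3.74% of all genes). With CDH11-/- higher that held for 1, a gene of the ferroptosis list (3.59% of all genes). An unadjusted p under 0.05 was reached by 22 of the 97 (14.4% of all genes). Their median log2 fold change was −0.10 and 64 of 97 were negative (52.3% of all genes). Without CDH11+/+ replicate 1 the count became 12 lower and 2 higher, where 6.18% of all genes were called, and without CDH11-/- replicate 2 it became 0, where 0.482% were. In DESeq2 5 of them were called, where 3.37% of all genes were, and in limma-voom 8, where 4.28% were: Slc40a1, Tfrc, Gpx1, Prdx1 and Selenop in both, and Mafk, Txn1 and Msra in limma-voom.

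Slc40a1, which encodes ferroportin, the iron exporter of cells, was the list gene that fell. It had 64.2, 63.9, 65.8 and 62.6 CPM in CDH11-/- libraries, against 77.7, 83.8, 81.0 and 89.6 CPM in CDH11+/+ libraries. The groups did not overlap. The edgeR estimate was −0.37 ± 0.06 on the log2 scale (SE, adjusted p = 0.0224). Over 20 alternatives the adjusted p lay between 4.4e-05 and 0.0833, and 11 of them kept the call. In those 11 fits the share of all genes called ran from 0.536% (without CDH11+/+ replicate 3) to 6.18% (without CDH11+/+ replicate 1). The call ended with the authors' normalized values or factors (adjusted p = 0.0555 to 0.0602, limma or edgeR) and in edgeR without CDH11-/- replicate 1 (0.0713), 2 (0.0543), 3 (0.0663) or 4 (0.0621) and without CDH11+/+ replicate 2 (0.0659) or 4 (0.0833). Of the 18 ferroptosis lipid and iron genes, 12 were negative, with a median of −0.07. Tfrc, the transferrin receptor for iron uptake, had 29.9 to 41.0 CPM in CDH11-/- and 35.7 to 60.1 CPM in CDH11+/+ libraries (log2 fold change −0.57 ± 0.16, SE, edgeR adjusted p = 0.17).

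Among 19 other NRF2 targets, 13 were negative and 0 were called in edgeR (6 at an unadjusted p under 0.05, with 0 called in DESeq2 and 1 in limma-voom), with a median of −0.12. The pair of smallest p were Abcc4, an efflux pump gene, at 67.3 to 75.5 CPM in CDH11-/- and 78.7 to 89.9 CPM in CDH11+/+ libraries (−0.22 ± 0.07, SE, edgeR adjusted p = 0.177), and the thioredoxin gene Txn1 (−0.19 ± 0.07, SE, edgeR adjusted p = 0.233). Nqo1, the quinone reductase often read as the marker of NRF2 activity and named after its values were seen, had 17.2 to 26.2 CPM in CDH11-/- and 21.4 to 36.4 CPM in CDH11+/+ libraries (−0.46 ± 0.18, SE, edgeR adjusted p = 0.283). Slc7a11, the cystine carrier that feeds glutathione synthesis and also named after its values were seen, went the other way, at 4.46 to 6.21 CPM in CDH11-/- and 2.58 to 6.18 CPM in CDH11+/+ libraries (0.52 ± 0.25, SE, edgeR adjusted p = 0.374).

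Of 13 partners and regulators of NRF2 and KEAP1, 5 were negative and 0 were called in edgeR (2 at an unadjusted p under 0.05, with 0 called in DESeq2 and 1 in limma-voom), with a median of 0.02. Mafk, a small MAF partner, stood at 49.4 ± 2.86 CPM in CDH11-/- and 42.8 ± 3.69 CPM in CDH11+/+ libraries (SD, n = 4 each), a value of 0.21 ± 0.08 (SE, edgeR adjusted p = 0.245). Sqstm1, the autophagy adaptor p62 that binds KEAP1, stood at 438 ± 43.4 CPM in CDH11-/- and 494 ± 16.3 CPM in CDH11+/+ libraries (−0.17 ± 0.08, SE, edgeR adjusted p = 0.337).

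The other peroxide-removing genes had mostly negative values. Gpx1, the abundant cytosolic glutathione peroxidase, had 783, 833, 880 and 687 CPM in CDH11-/- libraries, against 963, 1172, 1036 and 1042 CPM in CDH11+/+ libraries, without overlap. The edgeR estimate was −0.40 ± 0.09 on the log2 scale (SE, adjusted p = 0.0742). Over 20 alternatives the adjusted p lay between 0.00274 and 0.209, and 5 of them made a call. Among these were DESeq2, limma-voom, the surrogate variable and the edgeR fit without CDH11+/+ replicate 1. In those fits 3.37%, 4.28%, 4.57% and 6.18% of all genes were called. Catalase, Cat, had 177 to 241 CPM in CDH11-/- and 188 to 330 CPM in CDH11+/+ libraries (−0.47 ± 0.17, SE, edgeR adjusted p = 0.273). Of the 7 tested glutathione peroxidase, superoxide dismutase and catalase genes 5 were negative, with a median of −0.25, and 0 were called in edgeR (2 at an unadjusted p under 0.05, with 1 called in DESeq2 and 1 in limma-voom). Of 12 thioredoxin and peroxiredoxin genes 8 were negative, with a median of −0.11, and 0 were called in edgeR (2 at an unadjusted p under 0.05, with 1 called in DESeq2 and 2 in limma-voom). Prdx1, a peroxiredoxin that sulfiredoxin restores, had 471 to 511 CPM in CDH11-/- and 548 to 625 CPM in CDH11+/+ libraries, without overlap (−0.25 ± 0.06, SE, edgeR adjusted p = 0.116), and the methionine sulfoxide reductase gene Msra had −0.48 ± 0.16 (SE, edgeR adjusted p = 0.224).

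Genes of selenoprotein synthesis and selenium transport were negative in 8 of 9 cases, with a median of −0.15. They bear on Gpx3, Gpx4 and Txnrd1, whose proteins need selenocysteine. In edgeR 0 of the 9 were called (2 at an unadjusted p under 0.05, with 1 called in DESeq2 and 1 in limma-voom). Selenop, the selenium carrier of plasma, had 863, 1047, 1091 and 840 CPM in CDH11-/- libraries, against 1303, 1491, 1194 and 1256 CPM in CDH11+/+ libraries, without overlap (−0.45 ± 0.10, SE, edgeR adjusted p = 0.0815). Scly, which frees selenium from selenocysteine, had −0.18 ± 0.07 (SE, edgeR adjusted p = 0.298). Of 10 genes of glutathione synthesis, turnover and glutaredoxins 9 were negative, with a median of −0.20, and 0 were called in edgeR (0 at an unadjusted p under 0.05), 0 in DESeq2 or limma-voom and 2 with the surrogate variable. The carrier gene Slc25a39, which brings glutathione into mitochondria, had −0.32 ± 0.16 (SE, edgeR adjusted p = 0.403) and Glrx5 had −0.17 ± 0.09 (SE, edgeR adjusted p = 0.42). Of 9 heme genes 4 were negative, with a median of 0.08, and 0 were called in edgeR (3 at an unadjusted p under 0.05, with 0 called in DESeq2 or limma-voom). There the heme exporter gene Flvcr1 had 0.18 ± 0.07 (SE, edgeR adjusted p = 0.293) and the biliverdin reductase gene Blvra, which acts after Hmox1, had −0.15 ± 0.07 (SE, edgeR adjusted p = 0.339).

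**Figure D5:**
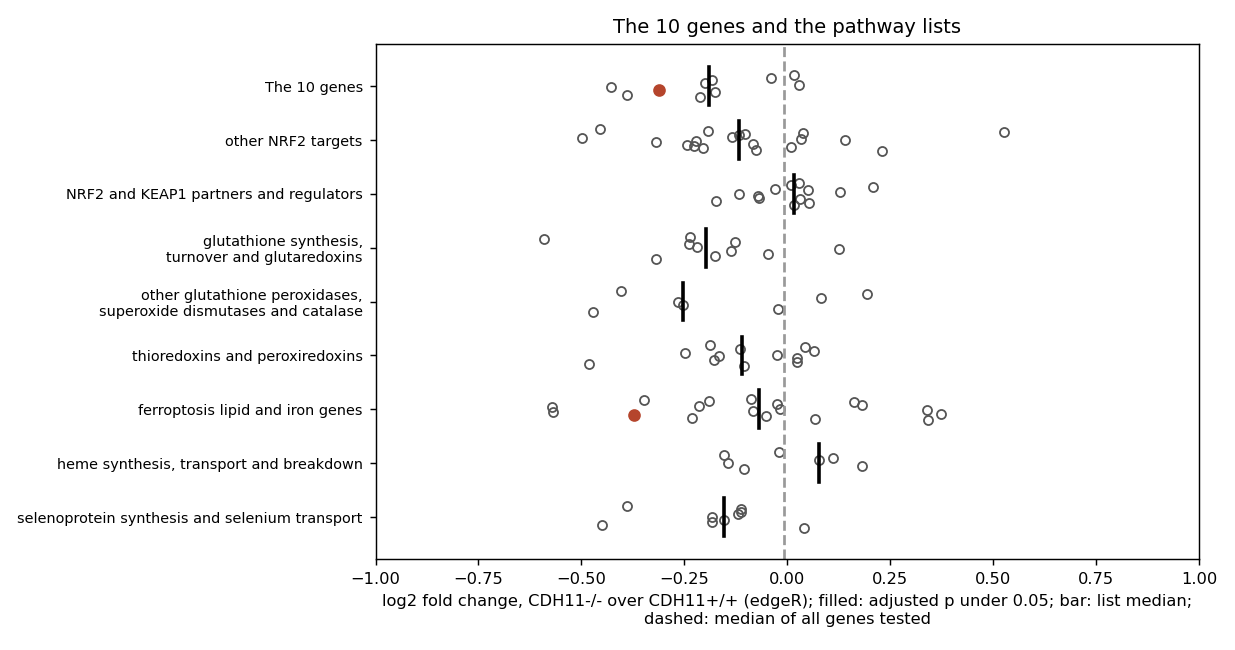
Log2 fold changes (CDH11-/- over CDH11+/+, edgeR) of the 10 genes and of 8 pathway lists, 1 point per gene, filled where the adjusted p is under 0.05, with a bar at each list median and a dashed line at the median of all genes tested. The filled points are Gsr (−0.31) and Slc40a1 (−0.37). Hpx (4.47) and Hp (1.86), which rest on 1 library, lie beyond the axis.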

How the data were processed

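Kidney RNA of 8 mice was sequenced with a directional library kit, per the labels' protocols. The authors deposited a table of raw counts by Ensembl identifier and a table of normalized values, a signal on the scale of counts. The submitters' processing notes name mm10, DRAGEN and DESeq2; for tool versions, annotation and strand setting the sources used here give nothing. In the deposited normalized signal each gene has its own scaling: over 14733 genes that reached 10 counts in all libraries, 33.1% of the scaling factors came within 1% of the library median. There were 0 columns of other samples.

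Names and positions came from GENCODE M21 on GRCm38, the assembly that mm10 names: 42170 identifiers had a name and 86, with at most 0.058% of a library's counts, did not. Replicates were numbered in order of deposit and pair nothing. The edgeR p-values set the difference between the labels against the spread of these 8 samples within their groups. The labels do not say more of how the mice were housed or bred, so whether litter or housing entered that spread or difference is not known. The main test was edgeR quasi-likelihood (edgeR 4.0.16, R 4.3.3) with TMM scaling, low counts removed by filterByExpr, robust moderation and the bias-corrected dispersion estimate, adjusted by Benjamini-Hochberg over 15852 genes at 0.05. Standard errors were derived as the size of the log2 fold change divided by the root of F. Log2 CPM used a prior count of 2. At 10675309 to 18539479 counts per library the members had 652 to 200449 counts each. The common biological coefficient of variation between mice, estimated over all genes tested, was 13.5%. Single members could be tighter, such as Gsr at 82.3 ± 2.95 CPM in CDH11-/- and 102.1 ± 3.79 CPM in CDH11+/+ libraries (SD, n = 4 each). The part of counting error in the spread of each member was not tested. The fit was tested on simulated data. The 3 ratios of members were tested by exact permutation, two-sided.

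Alternatives were: scaling by library size alone or by DESeq2 size factors; low counts kept, or 1 CPM required in 4 libraries; the DESeq2 1.42.0 test; limma-voom (limma 3.58.1) with quality weights, no robust moderation, limma on log2 of the normalized values plus a pseudocount of 1 or 10, the authors' factors as offsets, 1 surrogate variable (sva 3.50.0), a threshold of 0.10, and leaving out each library. The edgeR estimate of earlier versions was added after seeing the data. The members, the lists and the tests were chosen with earlier results of these data known. Named genes are the 10 members, Cdh11, and in each pathway list the called genes and the 2 of smallest p; others are marked as named after their values were seen.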

Additional observations from a re-analysis of the deposited data

Results flagged for a closer look

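In groups of 4, a library was marked where its gap to the nearest other library, over the range of the group, exceeded the 95% critical value of Dixon, which chance gives in about 1 of 20 groups; of 54 groups of the members, Cdh11 and the pathway genes named by rule, 3 were marked. Gclc stood at 293 CPM in CDH11-/- replicate 2, against 194 to 209 CPM in the other CDH11-/- libraries, so the level of the catalytic subunit of glutathione synthesis in that group rests on 3 libraries and 1 that lies apart. Glrx5 was at 49.5 CPM in CDH11+/+ replicate 1, against 59.3 to 60.8 CPM in the other CDH11+/+ libraries, and Blvra at 41.9 CPM in CDH11+/+ replicate 4, against 36.8 to 37.5 CPM.

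The largest gaps were in a pair of plasma proteins that scavenge what hemolysis releases, both named after their values were seen and so not set against that rate. Hpx, hemopexin, was at 89.5 CPM in CDH11-/- replicate 2, against 1.21 to 3.17 CPM in the other CDH11-/- libraries. Hp, haptoglobin, was at 123 CPM in the same library, against 10.8 to 20.1 CPM in the others. Their log2 fold changes of 4.47 and 1.86 rest on that library (edgeR adjusted p = 0.368 and 0.413).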

How the results depend on the processing

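Srxn1 and Gsr stayed lower in all 20 alternative fits, at −0.48 to −0.33 and −0.33 to −0.26 (log2). The count of members called, 1, was 0 with library size alone, limma on the normalized values (both pseudocounts) and the authors' factors as offsets. It was 2 with no filter, DESeq2, limma-voom, 1 surrogate variable, the earlier edgeR estimate and a threshold of 0.10, and 0 to 2 when a library was left out. The count over all genes, 115, was 535 (DESeq2), 679 (limma-voom), 54 and 60 (limma on normalized values, pseudocounts of 1 and 10), 65 (offsets), 724 (surrogate variable), 312 (threshold of 0.10) and 27 to 993 with a library left out. The count of pathway list genes, 1, was 2 (no filter), 5 (DESeq2), 8 (limma-voom), 0 (both limma fits on normalized values, and offsets), 11 (surrogate variable), 3 (threshold of 0.10) and 0 to 14 with a library left out. The members' median of −0.19 was −0.11 with the surrogate variable and −0.28 to −0.12 with a library left out. Values near 0 changed sign: Keap1 to 0.0109 (library size alone), Nfe2l2 to −0.0243 (surrogate variable) and −0.0511 to 0.105 with a library left out, Txnrd1 −0.0433 to 0.103 with a library left out, and the Gclm to Gclc log2 ratio to 0.0831 (normalized values) and −0.0508 to 0.0667 with a library left out. With the promoter motif lengthened by an A, 1 member held a match. The cause of these changes was not tested. No paired analysis was possible because the labels give the groups no shared replicate numbers. Precision is limited by 4 libraries a group.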

Other observations

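CDH11-/- replicate 2 carried a set of transcripts known as hepatocyte products, in a list of 8 genes written after the values were seen (Alb, Apoa1, Ahsg, Cps1, Mat1a, Plg, Tdo2 and Serpina3k). All 8 were highest in that library, and their sum was 489 CPM, against 1.21 to 33.2 CPM in the other 7 libraries. The next library was CDH11-/- replicate 3 at 33.2 CPM. The urea cycle gene Cps1 was at 24.0 CPM, against 0 to 1.32 CPM in the others, and the methionine adenosyltransferase gene Mat1a at 21.0 CPM, against 0 to 1.79 CPM. Hpx and Hp, which the liver also makes, were high in the same library, as was Gclc within its group. The part of these transcripts in the Gclc and Gclm levels was not tested. Without that library the Gsr value was −0.29 (edgeR adjusted p = 0.076) and the Srxn1 value −0.46 (edgeR adjusted p = 0.069), while Gclc was −0.33 and Gclm −0.36 (edgeR adjusted p = 0.298 and 0.35).

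Leaving out CDH11+/+ replicate 1, the library with the fewest proximal tubule transcripts of its group, gave calls for NRF2 targets and partners beside the members, which were read after the values were seen. The main edgeR fit on all 8 libraries called 0 of the 19 other targets and 0 of the 13 partners, as did edgeR with any other library left out. With 1 surrogate variable and all 8 libraries, edgeR called 2 targets lower, where 4.57% of all genes were called. These were Me1 (−0.34, adjusted p = 0.00145) and Nqo1 (−0.32, adjusted p = 0.0487). On all 8 libraries limma-voom called Txn1 lower and Mafk higher, where 4.28% of all genes were called. Without CDH11+/+ replicate 1 edgeR called 4 of 19 targets and 1 of 13 partners. In that edgeR fit Nqo1 (−0.58, adjusted p = 0.0285), Me1, malic enzyme (−0.65, adjusted p = 0.0223), and Txn1 (−0.23, adjusted p = 0.0418) were lower. Slc7a11 (0.86, adjusted p = 0.0293) and the partner Mafk (0.28, adjusted p = 0.0455) were higher. In the same fit 6.18% of all genes were called, among them 6 of 10 proximal tubule markers, lower, and 4 of 4 endothelial, 3 of 5 fibroblast and 3 of 9 macrophage markers, higher. Their part in the values of the targets was not tested.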
